A study of Mus musculus with 2 samples.

Results

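The genes described here encode 10 receptors for acetylcholine and for extracellular nucleotides: the muscarinic receptors Chrm1, Chrm2 and Chrm3, the P2X receptors P2rx1, P2rx3, P2rx4 and P2rx7, and the P2Y receptors P2ry1, P2ry2 and P2ry6. They were taken by symbol from the GENCODE M21 annotation of the mouse genome mm10, where each symbol matched 1 of 21938 protein-coding genes. The rule that took them uses no measured value, but it was set with earlier results of these data known. For each gene, peaks and footprints were collected over its whole length plus a margin of 20 kb at each end, called the domain below, and each of the 42 distinct annotated transcript starts was examined apart. The data are DNase-seq of whole urinary bladder from 2 female B6CASTF1/J mice aged 36 days, the first-generation cross of a C57BL/6 laboratory strain with CAST mice, which descend from wild animals. Animals 5 and 6 of the labels are replicates 1 and 2 below. Both animals are of 1 genotype and no treatment is named in the labels, so there is no control and no second condition, and no test between groups could be made. Whole bladder holds urothelium, detrusor muscle, connective tissue, vessels and nerves.

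In DNase-seq, nuclei are cut lightly with deoxyribonuclease I, and places where cuts pile up are open DNA. A peak is such a place as called by the authors, its height is their signal for it, and a footprint is a short protected stretch inside open DNA. Contraction of the detrusor, the muscle of the bladder wall, is driven by acetylcholine and ATP released from parasympathetic nerves. Acetylcholine acts on muscarinic receptors, which signal through G proteins: M1 and M3 couple to the Gq family and phospholipase C, and M2 couples to the Gi family. P2X receptors are channels opened by ATP, and P2Y receptors are G protein-coupled receptors for ATP, ADP, UTP or UDP. Openness is a property of DNA and is not a measure of RNA or protein.

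Sequences of 5 starts are shown first, because they hold the contrast at the starts: open starts of Chrm3, P2rx4, P2rx7 and P2ry2 beside that of P2rx1, where neither animal had a peak. They run 5′ to 3′ on the strand of the gene, read from mm10 outside annotated exons, and capitals mark bases inside a footprint of both animals. The Chrm3 stretch is at chr13:10360848-10361047 (minus strand), the P2rx1 stretch at chr11:72998903-72999102 (plus), the P2rx4 stretch at chr5:122707361-122707543 (plus) and the P2rx7 stretch at chr5:122643801-122643910 (plus), each ending at the base before the first annotated start. The P2ry2 stretch, at chr7:101012038-101012220 (minus), ends at the base before the second annotated start.
Chrm3 start: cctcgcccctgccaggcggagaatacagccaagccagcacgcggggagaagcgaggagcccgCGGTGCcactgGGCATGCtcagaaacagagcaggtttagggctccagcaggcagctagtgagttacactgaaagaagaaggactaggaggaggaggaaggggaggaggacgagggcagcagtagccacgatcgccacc
P2rx1 start, no peak: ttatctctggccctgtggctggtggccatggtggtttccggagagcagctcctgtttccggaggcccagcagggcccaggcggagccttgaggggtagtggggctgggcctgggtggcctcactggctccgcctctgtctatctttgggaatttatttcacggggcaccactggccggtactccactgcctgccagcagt
P2rx4 start: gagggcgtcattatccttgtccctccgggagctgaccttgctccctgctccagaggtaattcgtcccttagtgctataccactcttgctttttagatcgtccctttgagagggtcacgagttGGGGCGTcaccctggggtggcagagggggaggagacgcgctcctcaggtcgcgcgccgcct
P2rx7 start: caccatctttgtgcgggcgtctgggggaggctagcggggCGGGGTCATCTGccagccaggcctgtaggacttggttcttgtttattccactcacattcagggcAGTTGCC
P2ry2 start: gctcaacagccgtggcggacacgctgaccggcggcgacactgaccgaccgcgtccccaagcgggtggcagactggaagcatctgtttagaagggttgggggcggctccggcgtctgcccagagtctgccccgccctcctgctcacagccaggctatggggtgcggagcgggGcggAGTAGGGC
The P2ry2 stretch had 17 CG dinucleotides in 183 bases and a GC content of 69.9%, and the P2rx4 stretch had 12 in 183 bases and 60.7%. The Chrm3 stretch had 10 in 200 bases and 62.5%, and the P2rx7 stretch had 4 in 110 bases and 60%. The P2rx1 stretch, without a peak, had 6 in 200 bases and 63.5%. Footprints of both animals covered 19 bases of the P2rx7 stretch, 13 of the Chrm3 stretch, 9 of the P2ry2 stretch and 7 of the P2rx4 stretch, and 0 of the P2rx1 stretch. The P2rx1 stretch was picked for having no peak, and 89.5% and 87.6% of all footprints lie in peaks. Its 0 therefore follows largely from the choice and is not a separate result.

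A further 3 sequences come from sites away from starts, each the tallest such site found in both animals in the domain of its gene. They are an intron 4 site of Chrm3 (chr13:9882401-9882600), a site upstream of P2rx7 (chr5:122627341-122627540) and a site between P2ry6 and P2ry2 (chr7:100988141-100988340), each on the strand of its gene and with the same use of capitals.
Chrm3 intron 4: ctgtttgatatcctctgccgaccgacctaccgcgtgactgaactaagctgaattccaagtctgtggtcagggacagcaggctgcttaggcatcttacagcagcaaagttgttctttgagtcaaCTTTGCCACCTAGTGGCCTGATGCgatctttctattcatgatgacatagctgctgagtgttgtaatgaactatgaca
P2rx7 upstream: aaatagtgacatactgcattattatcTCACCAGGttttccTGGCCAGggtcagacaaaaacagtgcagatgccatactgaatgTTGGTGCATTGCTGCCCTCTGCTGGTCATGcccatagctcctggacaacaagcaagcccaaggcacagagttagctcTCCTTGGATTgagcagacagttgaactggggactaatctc
P2ry2 and P2ry6 intergenic: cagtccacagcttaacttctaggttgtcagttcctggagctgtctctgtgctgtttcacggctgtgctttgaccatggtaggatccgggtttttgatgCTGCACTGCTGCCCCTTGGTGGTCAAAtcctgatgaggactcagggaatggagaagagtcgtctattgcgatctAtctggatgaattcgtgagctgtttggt
The capitals of the Chrm3 and P2rx7 sites include a match to the CTCF core, the sequence read by the insulator protein CTCF. The P2rx7 site held no CG dinucleotide in its 200 bases, and footprints of both animals covered 55 of them. In the intergenic site these covered 28 bases.

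Of the 10 receptor genes, 7 had at least 1 start open in both animals, meaning that a peak touched the 1 kb on either side of it in each: Chrm2, Chrm3, P2rx3, P2rx4, P2rx7, P2ry1 and P2ry2. Chrm1 and P2ry6 had a start peak in replicate 1 only, and P2rx1 had none in either animal. Over all protein-coding genes the share with a start open in both animals was 66.8%, so the receptors' count was close to the background. By distinct start, 24 of 42 were open in both animals, against 55.5% of all starts. All 16 CpG-rich starts were open, where CpG-rich means a GC content of at least 50% and a ratio of observed to expected CpG of at least 0.6 over 250 bp on either side, beside 96.0% of all such starts. Of the 26 other starts 8 were open, against 27.8% of all CpG-poor starts. Starts of 1 gene often lie in the same peak, so these are not independent. In a whole organ a low peak from few cells and a low peak from many cells cannot be told apart, which holds for every height below.

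**Figure D1:**
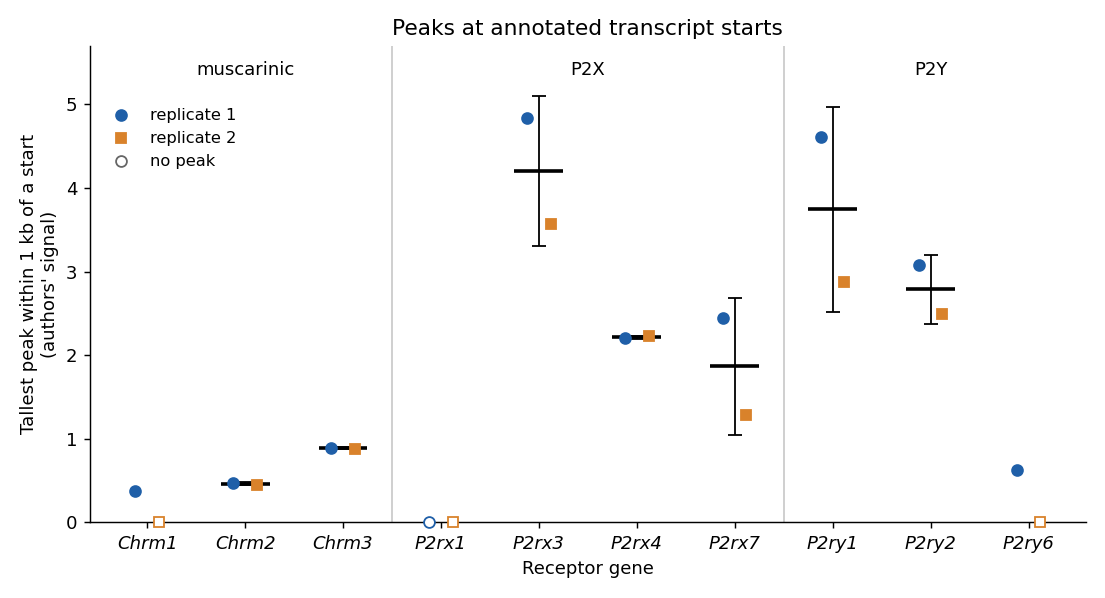
Height of the tallest peak within 1 kb of any annotated start, in the authors' signal, for each receptor gene and animal; bars and whiskers are the mean and SD of the 2 animals where both had a peak, and hollow symbols at 0 mark an animal without one. P2rx3 (a peak shared with the Ssrp1 start), P2ry1 and P2ry2 stand highest, Chrm2 and Chrm3 lie below 1, and P2rx1 has no peak in either animal.

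The tallest peak near a start was at P2rx3, where it also lies over a start of the neighbour Ssrp1 and cannot be assigned to P2rx3, with a mean of 4.20 ± 0.899 (SD, n = 2 for all means here), followed by P2ry1 at 3.74 ± 1.22, P2ry2 at 2.79 ± 0.411, P2rx4 at 2.21 ± 0.0161, P2rx7 at 1.86 ± 0.824, Chrm3 at 0.883 ± 0.0122 and Chrm2 at 0.462 ± 0.0166. The values of P2rx3 and P2ry1 overlapped between animals, as did those of P2ry1 and P2ry2 and those of P2rx4 and P2rx7. Those of P2ry2 and P2rx4 did not overlap, nor did those of P2rx7 and Chrm3 or of Chrm3 and Chrm2. Within each animal, however, P2rx3 was above P2ry1 and P2ry1 above P2ry2, while P2rx4 and P2rx7 changed order. Both muscarinic start peaks were lower in each animal than those of P2rx4, P2rx7, P2ry1 and P2ry2.

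Chrm2 encodes M2, the Gi-coupled receptor known as the more abundant muscarinic subtype of the detrusor. The gene (ENSMUSG00000045613.9, chr6:36388084-36528414, plus strand) spans 140.3 kb and has 2 annotated starts, both CpG-rich. Replicate 1 had a single peak in the whole domain, in intron 1, 485 bp downstream of the first start and with a height of 0.474. Replicate 2 had a peak of 0.450 overlapping it, and a further peak of 0.442 over the first start itself that replicate 1 lacked. The shared site, chr6:36388421-36388688, was at the 20.9th and 24.9th percentiles of all heights in the lists of replicates 1 and 2. In height steps, of which every height in a list is a whole multiple, it was 60 and 53 steps. The lowest false discovery rate of the cut rate within 1 kb of the first start was 0.0272 over 111 bp in replicate 1, and 7.23e-05 over 1032 bp in replicate 2. Of 5 sites in the domain 1 was shared, and the other 4 were in replicate 2 only, with heights from 0.238 to 0.442. Replicate 1 had 0 footprints there and replicate 2 had 7.

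Chrm3 encodes M3, the Gq-coupled receptor known to mediate most of the contraction evoked by acetylcholine in the bladder. The gene (ENSMUSG00000046159.16, chr13:9875486-10360847, minus strand) spans 485.4 kb, and 3 of its 4 annotated starts were open, in or within 43 bp of a peak. The peak over the first start was 0.892 in replicate 1 and 0.875 in replicate 2, near the middle of each list (percentiles 52.8 and 58.2). A second site at these starts, in intron 1, was 0.474 and 0.382. The inner start at position 9878998, which gives the short transcript Chrm3-201, had no peak in either animal and no base listed with a false discovery rate. The tallest site of the domain was not at a start: it was the intron 4 site printed above, at 1.65 and 1.55, and 3403 bp from the nearest start. The next, also in intron 4, was 1.11 in replicate 1 and 1.31 in replicate 2. One in intron 3 was 0.6 and 0.374. Of 17 sites 9 were shared, and the 8 others had heights from 0.238 to 0.695.

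Chrm1 encodes M1, known mainly from neurons. The gene (ENSMUSG00000032773.9, chr19:8663789-8683587, plus strand) had a peak of 0.371 near its 2 starts in replicate 1, 245 bp beyond the second, and none in replicate 2. It has no CpG-rich start. Of the 6 sites in its domain 4 were shared, all away from starts. The tallest lay in the untranslated part of exon 3, at the far end of the gene, with 1.86 in replicate 1 and 1.25 in replicate 2. The next was downstream of the gene, at 1.45 and 0.892, and another in the same untranslated part was 0.916 and 0.756. The remaining one, upstream at chr19:8662421-8662640, was 0.781 and 0.680. A CTCF core was found in 3 of these 4 sites, namely the tallest, the downstream site and the upstream site. With footprints extended by 5 bp, it lay within a footprint of both animals in the first 2. In the upstream site it lay within one of replicate 2 alone. For the downstream site the extension was needed in replicate 2.

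The channels opened by ATP differed more among themselves. P2rx1 encodes P2X1, the channel known to carry the ATP part of detrusor contraction. The gene (ENSMUSG00000020787.14, chr11:72999103-73015200, plus strand) had no peak within 1 kb of any of its 3 starts in either animal. All 3 starts are CpG-poor, with an observed to expected ratio of 0.235 at the first. Replicate 2 had 23 bases with a false discovery rate of 0.0357 there, and replicate 1 had none. Intron 1 nevertheless held sites found in both animals. One was 1.54 in replicate 1 and 1.14 in replicate 2, and another 1.82 and 1.22. Each of these carried a footprint shared by the animals, and that of the latter, at chr11:73007821-73008000, held a CTCF core. The latter site lay 1791 bp from an annotated P2rx1 start, so the absence of a start peak holds for the 1 kb window only. Another shared site, in the untranslated part of exon 12, was 1.03 and 1.00.

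The P2rx1 domain had 2.67 peaks per 10 kb in replicate 1 and 1.43 in replicate 2, at the 96.8th and 83.3rd percentiles of all protein-coding genes. Of its 15 sites 8 were shared, and the other 7 were in replicate 1 only. Part of this density belongs to the neighbouring gene Camkk1, a calcium/calmodulin-dependent kinase kinase, whose start had the tallest peak in the domain at 6.19 and 3.61. The tallest shared site away from starts, at chr11:73030901-73031120, was 4.06 and 2.89, and another was 2.57 and 1.85. Both are downstream of P2rx1 and nearer to a Camkk1 start, at 4316 and 3225 bp. Nearness does not assign a site to a gene.

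P2rx3 encodes P2X3, known from the sensory nerves of the bladder. The gene (ENSMUSG00000027071.14, chr2:84998583-85037462, minus strand) has 5 starts, of which only the first, CpG-rich one was open. Its tallest site, chr2:85037061-85037280, was 4.84 in replicate 1 and 3.57 in replicate 2. But it lay 182 bp inside the gene and over a start of Ssrp1, which encodes a histone chaperone subunit. That Ssrp1 start is therefore inside P2rx3. The 2 genes thus share this open site, and its height cannot be assigned to P2rx3. Over the first P2rx3 start itself only replicate 2 had a peak, of 2.01, and this peak also lies over a start of Ssrp1. In replicate 1 no peak was called there, but all 360 bp of that site were listed at a false discovery rate down to 1.09e-08. A small peak of 0.518 further into intron 1, 478 bp from a start of Ssrp1, was also in replicate 2 only. The 4 inner starts, all CpG-poor, had no peak in either animal. Inside the gene, a site in intron 9 was 0.750 and 0.747 and one in intron 8 was 0.505 and 0.561. The tallest site of the domain, at 15.3 and 8.70, was at a start of the neighbour Tnks1bp1, and the next at its starts were 3.34 and 1.96, and 2.23 and 2.29.

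P2rx4 and P2rx7 are neighbours on chromosome 5, and their domains overlap. P2rx4 encodes a channel known from epithelia, endothelium and macrophages. The gene (ENSMUSG00000029470.15, chr5:122707544-122729738, plus strand) has 8 starts, and the 6 CpG-rich ones lie in 1 peak region, chr5:122707361-122708080, with 2.20 in replicate 1 and 2.23 in replicate 2. Its 2 inner starts had no peak. All 6 sites of the P2rx4 domain were found in both animals. Away from the starts, the tallest were 1.82 and 1.72 downstream, 1.24 and 1.22 in intron 8, and 0.947 and 0.730 downstream. The start region carried 9 footprints in replicate 1 and 6 in replicate 2, of which 5 of the first list overlapped one of the second.

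P2rx7 encodes P2X7, a channel opened only by high ATP and known from immune cells. The gene (ENSMUSG00000029468.17, chr5:122643911-122691432, plus strand) has no CpG-rich start among 7, yet 4 were open in both animals, and these lie within a stretch of the first exon and intron. The peak over the first start was 2.45 in replicate 1 and 1.28 in replicate 2, a log2 difference of -0.56 after the median difference of all sites was taken off. A second site, in intron 1, was 0.963 and 0.756. The inner start at 122650424 had a peak of 0.466 in replicate 1 only, 911 bp away. Upstream, the site with the CTCF core was 4.86 and 3.13, higher than the start peak in both animals. Between P2rx7 and P2rx4, 2 sites of 0.513 and 0.645 and of 0.837 and 0.739 were shared. Leukocyte marker genes had few start peaks here, and 1 of 6 (Adgre1) had a start open in both animals, against 66.8% of all protein-coding genes. Cd68 had a start peak of 1.02 in replicate 2 only. Ptprc, Csf1r, Cd3e and Cd79a had none in either, and the summed start heights of the list were 0.561 and 1.48. Which cells carry the P2rx7 peaks was not tested.

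**Figure D2:**
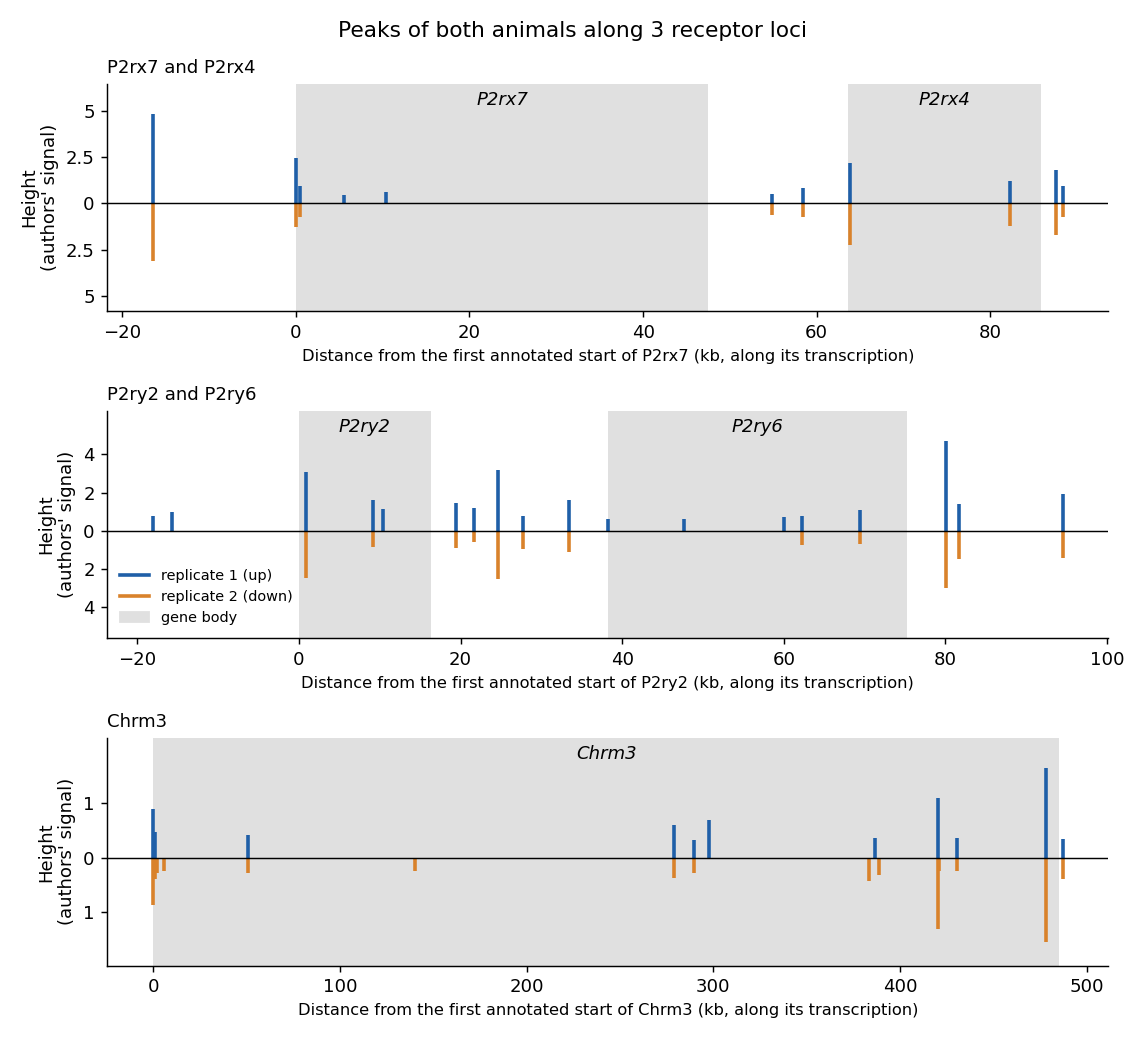
Heights of all peaks by distance from the first annotated start of the first gene named in each panel, in kb along its transcription; replicate 1 points up and replicate 2 down, and grey marks gene bodies. P2rx7 and P2ry2 have lines of both animals at or near 0, and Chrm3 is sparse with its tallest line near the far end of the gene.

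Among the P2Y receptors, P2ry1 encodes a Gq-coupled receptor for ADP. The gene (ENSMUSG00000027765.6, chr3:61002795-61008982, plus strand) has 2 starts 4 bp apart, both CpG-rich and under a site at chr3:61002581-61003280. Its height was 4.61 in replicate 1 and 2.88 in replicate 2, the 92.0th and 89.3rd percentiles of the lists. A second peak of 1.76, 355 bp upstream of the start, was called in replicate 1 only, although in replicate 2 all 240 bp of it were listed at a false discovery rate down to 9.79e-18. The domain held 4 sites, and the start site was the only shared one. The remaining peaks were 0.466 in replicate 1 and 0.238 in replicate 2. The site carried 5 footprints in replicate 1 and 11 in replicate 2.

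P2ry2 encodes a receptor for ATP and UTP, known from epithelia. The gene (ENSMUSG00000032860.5, chr7:100996568-101012866, minus strand) has 6 starts, and all were open in both animals. The 4 CpG-rich ones lie in 1 site, chr7:101011741-101012220, with 3.08 in replicate 1 and 2.50 in replicate 2. The first annotated start is 646 bp from that site and has no peak of its own. The inner start at 101003887 had a separate site 127 bp away, of 1.61 and 0.849, although it is CpG-poor with an observed to expected ratio of 0.111. Peaks of 1.15 in intron 2 and of 0.971 and 0.781 upstream were in replicate 1 only.

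P2ry6 encodes a receptor for UDP. The gene (ENSMUSG00000048779.5, chr7:100937630-100974649, minus strand) had start peaks in replicate 1 only, 0.624 over the first start and 0.616 at 794 bp from the second. Within 1 kb of any of its 3 starts replicate 2 had no base with a listed false discovery rate, and the lowest in replicate 1 was 0.0133. Its domain was still among the dense ones, with 1.95 and 1.56 peaks per 10 kb (percentiles 90.0 and 86.4), and 10 of its 13 sites were shared. Of these, 5 lie in the stretch between P2ry6 and P2ry2 and also count for P2ry2. The tallest of the 5, printed above, was 3.17 in replicate 1 and 2.54 in replicate 2, and lies 13492 bp from the nearest P2ry6 start and 15547 bp from the nearest P2ry2 start. The others were 1.62 and 1.12, 1.44 and 0.900, 1.18 and 0.586, and 0.789 and 0.985. The tallest site of the domain, 4.72 and 3.02, was near a start of the neighbour Arhgef17, a site further downstream was 1.93 and 1.46, and inside P2ry6 the intron 1 sites were 1.07 and 0.730, and 0.766 and 0.781.

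**Figure D3:**
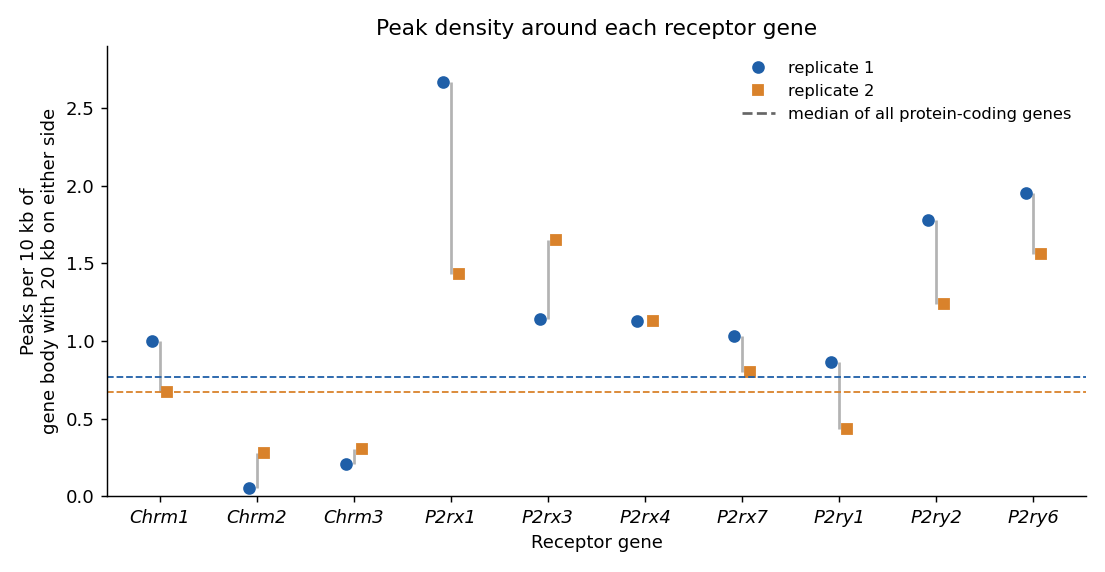
Peaks per 10 kb of each domain (the gene and 20 kb at each end), for each receptor gene and animal; dashed lines are the medians of all protein-coding genes in each animal. Chrm2 and Chrm3 lie below both lines, and P2rx1, P2rx3, P2rx4, P2rx7, P2ry2 and P2ry6 lie above the line of the same animal in both.

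By the mean of the animals the densest domains after that of P2rx1 were those of P2ry6, P2ry2 (1.78 and 1.24 peaks per 10 kb) and P2rx3 (1.14 and 1.65), but in replicate 2 P2rx3 and P2ry6 were both denser than P2rx1. The sparsest were those of Chrm2 (0.0555 and 0.277, percentiles 13.8 and 25.7) and Chrm3 (0.209 and 0.305, percentiles 19.1 and 26.8), the 2 longest genes of the set. The median over the 10 genes was 1.08 in replicate 1 and 0.963 in replicate 2, and that over all protein-coding genes was 0.768 and 0.672. Domains of short genes consist mostly of flanking DNA and of neighbours, so the density does not belong to the receptor alone.

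The domains held 89 sites in all, counting once the 8 that lie in 2 domains, and 52 (58.4%) were found in both animals, close to the 60.3% of all sites. There were 22 in replicate 1 only and 15 in replicate 2 only. Of the shared sites, 10 were at receptor starts, 8 at starts of other genes and 34 away from any protein-coding start. Sites in 1 animal were lower than shared ones: their median height was 0.683 in replicate 1 and 0.314 in replicate 2, beside 1.45 and 1.13 for the shared sites. Before scaling, 41 of the 52 were higher in replicate 1. Relative to the median of all paired sites, which was -0.37 (log2, replicate 2 minus replicate 1), the receptors' sites had a median of 0.02 and ran from -0.64 to 0.95, with 27 of 52 above 0. The lowest was an intergenic site between P2ry6 and P2ry2 (1.18 and 0.586), and the highest a site 6900 bp upstream of P2rx1 (0.497 and 0.739). The P2rx7 start site and the inner start site of P2ry2, at -0.56 and -0.55, were also low in replicate 2.

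**Figure D4:**
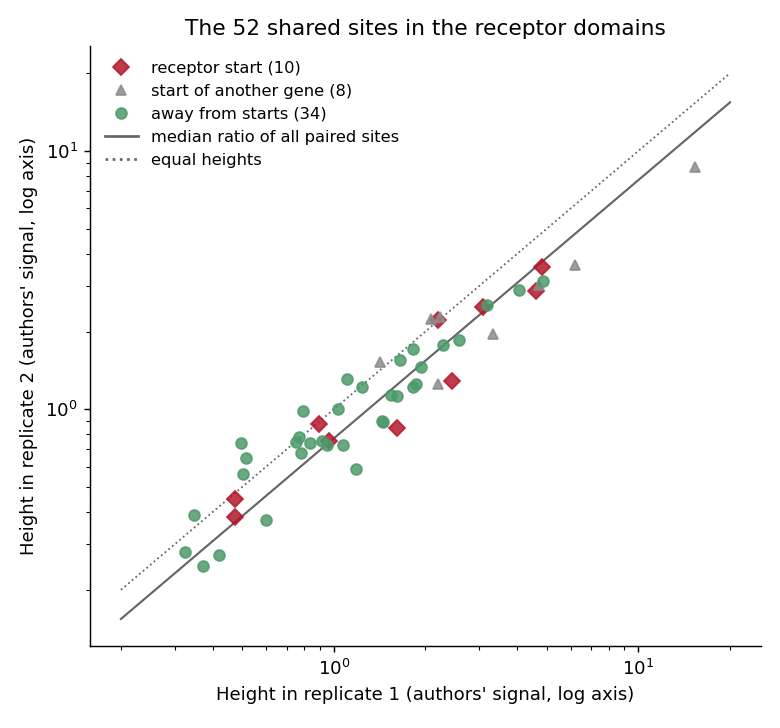
Height in replicate 1 against replicate 2 of the 52 shared sites, in the authors' signal on log axes; symbols give the place of each site, the solid line is the median ratio of all paired sites and the dotted line equal heights. Most sites, including those at receptor starts, lie close to the solid line.

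Marker genes of cell types are given beside these values. Starts were open in both animals for 10 of 10 urothelial, 9 of 9 smooth muscle and 6 of 6 fibroblast genes. The counts were 4 of 5 for endothelial, 4 of 7 for Schwann cell and neuron, 2 of 3 for skeletal muscle and 0 of 3 for liver genes. Over all protein-coding genes the share was 66.8%, near those of the skeletal muscle (66.7%) and Schwann cell and neuron (57.1%) lists. Relative to all paired sites, start peaks of urothelial markers had a median log2 difference of -0.45, and 8 of 10 were lower in replicate 2. The endothelial markers had -0.52, and the smooth muscle and fibroblast markers had 0.14 and 0.12. Summed start heights of the urothelial list were 28.6 in replicate 1 and 16.6 in replicate 2, and those of the smooth muscle list 18.5 and 13.3. The part of tissue composition in the receptor differences between the animals was not tested.

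Footprints numbered 178 in the receptor domains in replicate 1 and 162 in replicate 2. Of them 91.6% and 92.0% lay in peaks, against 89.5% and 87.6% of all footprints. In or out of peaks, 40.4% of the domain footprints of replicate 1 and 46.9% of those of replicate 2 overlapped a footprint of the other animal. For all footprints these shares were 44.8% and 52.2%. Per kb of peak the receptors had 10.4 and 8.74, and all peaks 11.1 and 9.54. P2ry6 and P2rx3 each had 15 footprints of replicate 1 that overlapped one of replicate 2, P2rx7 had 12, P2rx1 had 10, P2rx4 had 8 and P2ry2 had 7. Chrm1 had 6, Chrm3 had 5, P2ry1 had 3 and Chrm2 had 0.

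Letters of 18 motifs were sought on both strands in the 150 bp centred on each shared site. The CTCF core was in 7 of the receptors' 52 shared sites (13.5%) and in 6.03% of all 80169 shared sites. In 5 of the 7 it lay in a footprint of both animals, each footprint extended by 5 bp. These were at P2rx1 intron 1, Chrm3 intron 4, the exon 3 and downstream sites of Chrm1, and upstream of P2rx7. The SP/KLF letters GGGCGG were in 21.2% against 18.2% of all, the CCAAT box in 21.2% against 18.6%, the E-box CAGCTG in 13.5% against 14.3%, TEAD GGAATG in 11.5% against 9.07%, and AP-1 TGANTCA in 7.69% against 6.72%. The letters of ETS (CCGGAAG), RUNX (TGTGGTT) and CREB (TGACGTCA), and the MEF2 motif, were in 1 site each, beside 3.27%, 2.89%, 0.718% and 0.226% of all. Within these 150 bp no site held the CArG box, the element of serum response factor in muscle genes, which was in 0.675% of all shared sites. Also in 0 of 52 were the letters AGATAA of the GATA factors (4.56% of all), forkhead (TGTTTAC, 2.12%), grainyhead (AACCGGTT, 0.137%) and, by name, NRF1 (1.55%), the REST core (0.225%), NFI (0.109%) and the PPAR DR1 (0.0324%). Letters outside the 150 bp were not counted: the printed P2rx7 upstream site holds AGATAA there, on the other strand. A match is a description of letters and does not show that a protein was bound.

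Of the other P2X genes, P2rx2 (1.59 and 0.977), P2rx5 (0.892 and 0.968) and P2rx6 (2.23 and 1.13) all had a start open in both animals. Over all protein-coding genes the share was 66.8%, which is the background for this list and for those below. Of 5 other P2Y genes only P2ry14, a receptor for UDP-sugars, did (0.868 and 0.501), and P2ry4, P2ry10, P2ry12 and P2ry13 had no start peak in either animal. Chrm4 had a peak 712 bp from its start (2.12 and 1.30), and Chrm5 had none. Of the adenosine receptors, which respond to the product of ATP breakdown, Adora1 (1.19 and 1.36), Adora2a (1.92 and 1.65) and Adora2b (1.86 and 1.90) were open and Adora3 was not.

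Among genes that make or clear the transmitters, Chat and Slc18a3, which make acetylcholine and load it into vesicles, had no start peak in either animal, and the choline transporter Slc5a7 had low ones (0.245 and 0.204). The esterases Ache (5.46 and 3.06) and Bche (1.91 and 1.79) were open, Ache at 2 of its 8 starts and with its peak 559 bp from a start. Of the ATP release genes, Gja1 (2.20 and 1.40), Slc17a9 (1.73 and 1.33) and Panx1 (1.50 and 1.37) were open and Panx2 was not. All 7 genes for nucleotide breakdown were open, the tallest being Entpd1 (9.78 and 4.84), Alpl (2.69 and 2.04) and Nt5e (1.93 and 1.44).

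Most downstream genes had taller start peaks than most of the receptors, but Ryr2 (1.09 and 0.756) and Grk3 (1.63 and 0.951) were lower than P2rx4. Of 8 G protein and phospholipase C genes 7 were open, led by Gna11 (17.9 and 10.8), Gnai2 (11.0 and 6.45) and Gnai3 (6.64 and 4.43), while Plcb2 had a peak of 0.158 in replicate 1 only. All 8 calcium and contraction genes were open, with the tallest at Rhoa (12.7 and 6.66), Itpr1 (12.3 and 6.23) and Rock1 (12.2 and 6.12). All 5 desensitisation genes were open, with the tallest at Arrb2 (11.9 and 6.55), Rgs2 (8.77 and 5.84) and Grk2 (3.14 and 2.57). The median tallest start peak was 6.28 and 3.74 for the open G protein and phospholipase C genes and 5.68 and 3.69 for the calcium and contraction genes. Many of these genes are active in most cell types. All 8, 8 and 5 genes of these lists have a CpG-rich start, unlike the receptors, and 96.0% of all CpG-rich starts were open in both animals.

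**Figure D5:**
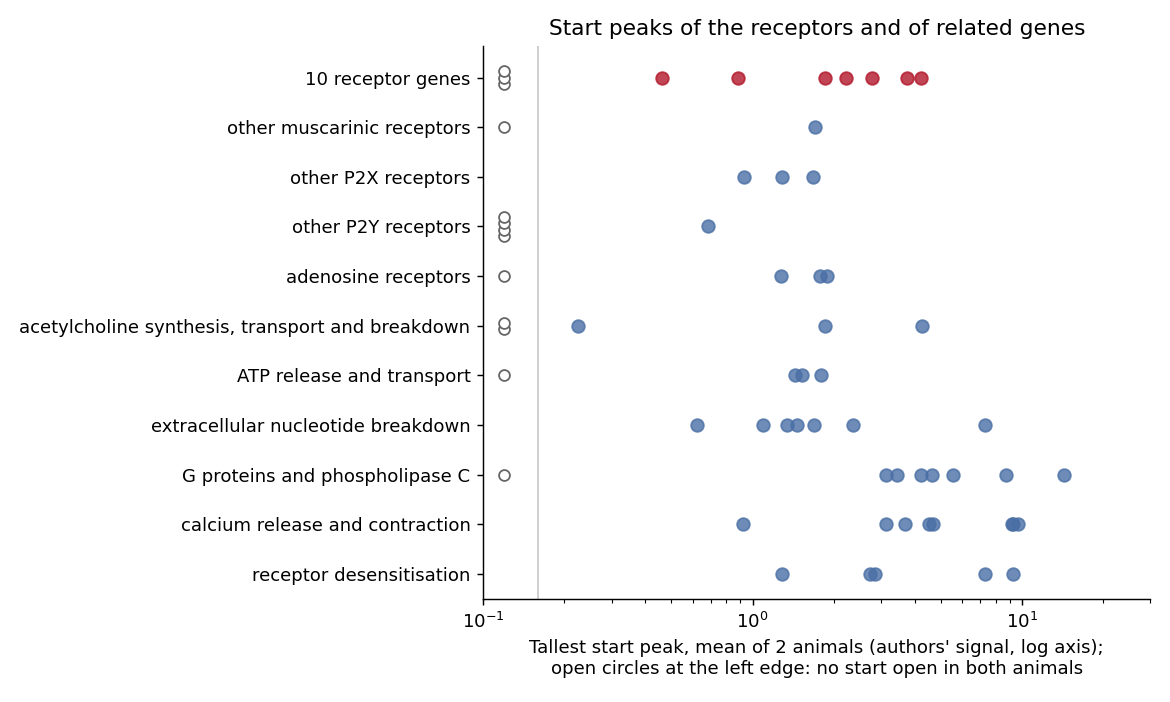
Tallest start peak of each gene, mean of the 2 animals in the authors' signal on a log axis, for the 10 receptor genes and 10 lists of related genes; hollow circles at the left edge are genes without a start open in both animals. The 7 receptors with a start open in both animals lie between 0.462 and 4.20, the latter being the P2rx3 peak shared with the Ssrp1 start. The G protein, calcium and desensitisation lists reach higher, as do Entpd1 (7.31) of the nucleotide breakdown list and Ache (4.26) of the acetylcholine list.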

How the data were processed

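DNase-seq peaks, footprints and cut-rate statistics of 2 bladders were used as the authors deposited them on mm10, per the labels. Neither aligner, callers nor read depth is given in the sources used here. Peak height is the signal the authors deposited for each peak; its scaling is not stated, and heights are whole multiples of 0.00789 in replicate 1 and 0.00849 in replicate 2 (100% within 0.05 of a step). The p-value type columns the authors deposited are a false discovery rate listed up to 0.05 and a footprint threshold of 0.01. The larger peak list of each animal (117773 and 102671 peaks) was used, with 280105 and 247833 footprints.

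Peaks of both animals overlapping by at least 1 bp formed a site, whose height in an animal was that of its tallest peak there. Tools were Python 3.11.15, pandas 2.3.3, numpy 2.4.6, pysam 0.24.0 and samtools 1.23.1; the joining of peaks was tested on simulated peaks. The 10 genes, the related and marker lists and the motifs were chosen with earlier results of these data known. All 10 genes are named, every other receptor of both families, and of each other list up to 3 genes with the tallest start peak and those without one; per gene, start peaks and the 3 tallest shared peaks elsewhere are given. The sequence of the P2rx1 start and peaks beyond this rule were chosen after values were seen, and 1 P2rx1 site is not reported here. RefSeq promoter entries matched 7 of the 10 genes and are not printed. With 1 group of 2 animals there are no tests; windows, lists and overlap rules were varied, and each animal was left out in turn.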

Additional observations from a re-analysis of the deposited data

How the results depend on the processing

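No paired analysis was possible because the animals form 1 group and no result comes from a test. The count of genes with an open start ranged from 6 to 9 over all alternatives, and that of distinct starts from 21 to 32. Leaving out each animal gave 7 to 9 genes and 24 to 30 starts. With 2 kb on either side of a start the count was 9 genes. Shared sites of Chrm1, 1149 bp from a start, and of P2rx1, 1791 bp from a start, then fall in the window. Shared sites moved from 52 to 84 with 50 kb domains, and to 34 with the smaller peak list and also 34 with the upper 50% of peaks by height. Median peaks per 10 kb moved from 1.02 to 1.18 with 10 kb domains, 0.767 with the smaller list and 0.725 with the upper 50% of peaks, and was 0.963 to 1.08 without each animal. The median log2 difference between the animals moved from 0.0187 to -0.356 when the median of all sites was not subtracted. The share of footprints found in both animals moved from 43.7% to 52.0% within peaks of the smaller list and to 38.9% with 10 kb domains. The other 21 of 30 alternatives for these results stayed within 1.5 times a count or within the spread between the animals. For the log2 difference the limit was instead 0.417, the SD over all shared sites, with the same sign required. That limit is wide beside 0.0187, and -0.356 counted as moved by its sign alone. With 2 animals, leaving 1 out moves a mean by less than their SD by construction, so this says nothing about stability. Under the smaller list and the 250 bp window the tallest start peaks of P2rx3, P2rx4, P2rx7, P2ry1, P2ry2 and Chrm3 kept their values, and that of Chrm2 was 0.450, in replicate 2 alone. The start peaks of Chrm1 and P2ry6, which have no spread, are not in the smaller list. Sharing cannot be counted with 1 animal. The number of animals limits all values, and low peaks such as those of Chrm2 rest on few steps of signal.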
